A study of Homo sapiens with 8 samples.

Results

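The miR-25/92 seed family is a set of microRNAs (miRNAs, short RNAs that guide Argonaute proteins to matching messenger RNAs) with the same seed, the stretch of bases 2 to 8 that does most of the target recognition. Members were taken by name from a table of 2026 mature miRNA entries. The 8 members comprise 5 guides with the shared seed (hsa-miR-25-3p, hsa-miR-92a-3p, hsa-miR-92b-3p, hsa-miR-32-5p and hsa-miR-363-3p) and 3 other arms of their hairpins (hsa-miR-25-5p, hsa-miR-92a-1-5p and hsa-miR-92b-5p), called here without the species prefix. Small RNA sequencing was done on HCT116, a human colorectal cancer cell line, after growth as spheroids in serum-free medium with B27 and N2 supplements, basic fibroblast growth factor and epidermal growth factor in ultra-low-attachment flasks. Cells sorted by flow cytometry as CD44v6-positive with a fluorescent antibody were set against CD44v6-negative cells, and propidium iodide was used against dead cells in both. CD44v6 denotes variants of CD44, a receptor for hyaluronan, that include variant exon v6. Colorectal cancer cells with stem-like features are often sorted by it, and the series asks which miRNAs go with them. Both groups are 1 cell line, and each has 2 samples.

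The guides of this family come from several loci. miR-92a belongs to the oncogenic polycistron miR-17-92 and to its relative on chromosome X, miR-25 lies in the miR-106b-25 cluster inside the replication gene MCM7, and miR-92b and miR-32 have loci of their own. Because the guides share a seed, they repress overlapping messenger RNAs, among them those of the pro-apoptotic protein BIM and of the ubiquitin ligase subunit FBXW7. miR-92a is known as a miRNA that is raised in colorectal tumours and in the stool and plasma of patients.

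The mature guides show what they share and where they part. In RefSeq (GRCh38.p14) all 8 members had a mature sequence. Each guide is printed 5′ to 3′ with the seed in capitals.
miR-92a-3p: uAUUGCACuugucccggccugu
miR-92b-3p: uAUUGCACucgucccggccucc
miR-25-3p: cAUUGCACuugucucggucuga
miR-32-5p: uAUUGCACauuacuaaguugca
miR-363-3p: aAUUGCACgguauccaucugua
miR-92a-3p and miR-92b-3p were identical at 19 of 22 bases. Counted from 1 at the 5′ end with the base of miR-92a-3p first, they differed by U10C, G21C and U22C. miR-25-3p matched miR-92a-3p at 18 of 22 bases, and miR-32-5p and miR-363-3p matched miR-92a-3p at 11 and 10 of 22. A read of miR-92a-3p or miR-92b-3p that has lost its last 2 bases therefore differs at a single position, and how the authors' counting treated mismatches is not given in the sources used here. The members are 21 to 23 bases long, so reads are compared between them without scaling for length. GC content was 63.6% in miR-92b-3p, 54.5% in miR-92a-3p, 50.0% in miR-25-3p, 40.9% in miR-363-3p and 31.8% in miR-32-5p. RefSeq lists 6 mature names with this seed, and 5 of them were entries of the table. The remaining name, miR-367-3p, known from a cluster active in pluripotent cells, was not analysed here.

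The hairpins show the pairing of guide and other arm, with both arms in capitals.
MIR25: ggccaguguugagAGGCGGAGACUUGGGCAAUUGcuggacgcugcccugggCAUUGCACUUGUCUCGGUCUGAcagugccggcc
MIR92A1: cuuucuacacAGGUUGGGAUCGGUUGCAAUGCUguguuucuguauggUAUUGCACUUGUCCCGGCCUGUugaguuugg
MIR92B: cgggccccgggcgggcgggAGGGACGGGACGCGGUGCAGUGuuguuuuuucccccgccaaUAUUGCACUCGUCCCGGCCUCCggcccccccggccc
In GENCODE release 29 on GRCh38, MIR25 lies at chr7:100093560-100093643 (minus strand) in an intron of MCM7, and MIR92A1 at chr13:91351314-91351391 (plus strand) in an exon of the noncoding host gene MIR17HG. MIR92B lies at chr1:155195177-155195272 (plus strand) in an exon of AC234582.1, annotated as an antisense transcript. MIR32 lies at chr9:109046229-109046298 (minus strand) in an intron of TMEM245. MIR363 (chrX:134169378-134169452) and MIR92A2 (chrX:134169538-134169612) lie on the minus strand in exons of AC002407.1. MIR92A2 carries the same mature miR-92a-3p as MIR92A1, so reads of miR-92a-3p cannot be assigned to either copy. Within the other arms, runs of 5 to 6 bases are exact complements of part of the first 8 bases of their guide: miR-25-5p holds 5, miR-92a-1-5p holds 6 and miR-92b-5p holds 5.

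Depth differed widely. The libraries held 919802 and 154481 miRNA reads in CD44v6-positive samples 1 and 2, against 7880631 and 4592278 in CD44v6-negative samples 1 and 2, a 51.0-fold span, so depth moves with the groups. Each sample joins 2 sequencing entries, and nothing in the labels says that samples 1 and 2 came from separate cultures, so any p-value reflects the spread of these samples alone, and that spread may be technical. The sort marker could not be checked, since messenger RNA was not counted. All 8 miRNAs listed as markers of colon epithelium were read in every sample, at a sum of 17813 and 14076 CPM (reads per 1000000, scaled between libraries by TMM) in CD44v6-positive cells against 33838 and 20686 CPM in CD44v6-negative cells. miR-200a-3p, miR-141-3p and miR-429 were lower in both CD44v6-positive samples. The groups overlapped for miR-200b-3p, at 6581 and 4956 CPM in CD44v6-positive samples against 6963 and 6574 CPM in CD44v6-negative samples, and for miR-200c-3p. The intestinal miR-192-5p was at 1032 and 4560 CPM in CD44v6-positive samples against 1888 and 1322 CPM in CD44v6-negative samples. miR-194-5p and miR-215-5p were also highest in CD44v6-positive sample 2.

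The family took a larger part of the miRNA reads in CD44v6-positive cells. The 5 guides together made up 20.8% and 27.6% of all miRNA reads in the CD44v6-positive samples, against 5.87% and 10.8% in the CD44v6-negative samples. The groups did not overlap, at 24.2 ± 4.80% against 8.31 ± 3.45% (SD, n = 2 each). Exact binomial 95% intervals, which cover counting error only, since PCR reads are not independent molecules, ran from 20.7% to 20.9% and from 27.3% to 27.8% in the CD44v6-positive samples, against 5.86% to 5.89% and 10.7% to 10.8% in the CD44v6-negative samples. The spread between samples was far wider than these intervals. In such data, fewer cells of a type and less RNA per cell cannot be told apart, and a share also depends on every other miRNA. The most abundant entry outside the family, miR-100-5p, took 9.03% and 4.72% of the reads in CD44v6-positive cells against 18.1% and 9.79% in CD44v6-negative cells.

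**Figure D1:**
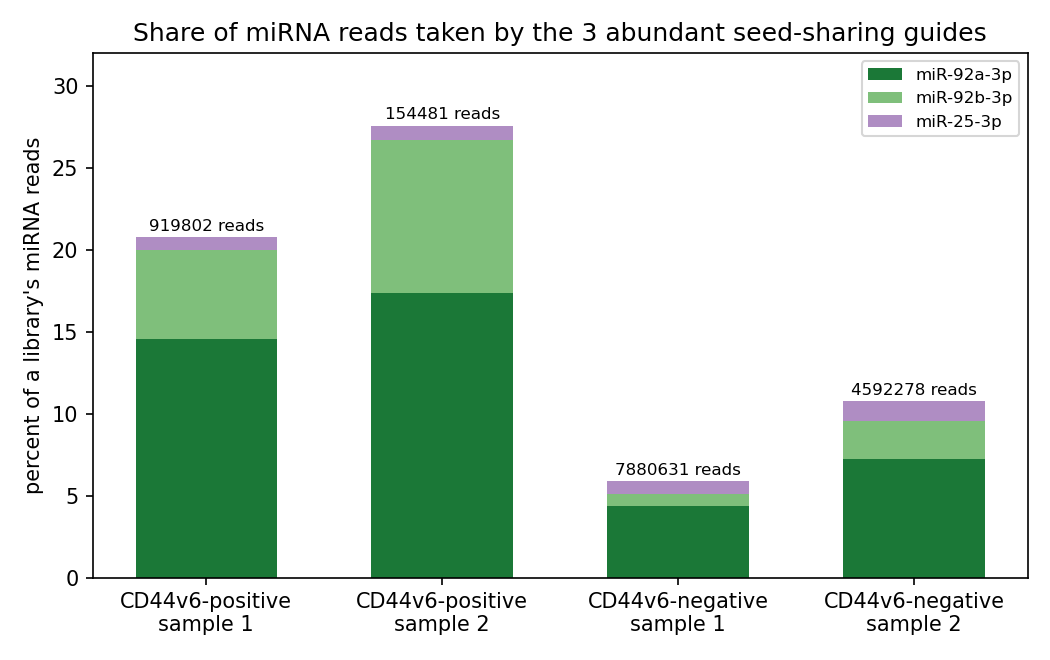
Stacked bars give the percent of each library's miRNA reads that came from miR-92a-3p, miR-92b-3p and miR-25-3p, with the library's total above the bar; no error is drawn because each bar is 1 library. The bars of the 2 CD44v6-positive samples reach 20.8% and 27.6%, above the 5.87% and 10.8% of the CD44v6-negative samples.

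The makeup of the family also differed. miR-25-3p supplied 3.74% and 3.05% of the reads of the 5 guides in CD44v6-positive samples, against 12.6% and 11.2% in CD44v6-negative samples. miR-92b-3p supplied 26.1% and 34.02% in CD44v6-positive samples, against 12.8% and 21.1% in CD44v6-negative samples. Both guides thus stood apart between the groups, in opposite directions. Shares within a sum are tied, so the share of a guide can fall without a fall in its own level. miR-92a-3p was the main guide everywhere, at 70.1% and 62.9% in CD44v6-positive samples against 74.5% and 67.6% in CD44v6-negative samples, and its groups overlapped. The samples numbered 2 had the smaller share of miR-92a-3p and the larger share of miR-92b-3p within each group.

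miR-92a-3p, the guide of the last hairpin of miR-17-92, stood at 144622 and 139614 CPM in CD44v6-positive cells, against 65928 and 60494 CPM in the CD44v6-negative group. On this scale samples of 1 group lay close together and the groups lay far apart. As a plain share of the reads, miR-92a-3p was at 14.6% and 17.3% in CD44v6-positive samples against 4.37% and 7.27% in CD44v6-negative samples. There the groups were also apart, but the CD44v6-negative samples were less alike. By reads it ranked 1 in both CD44v6-positive libraries, against 5 and 3 in CD44v6-negative libraries 1 and 2. The log2 fold change, CD44v6-positive over CD44v6-negative, was 1.17 ± 0.39 (SE; 2.25-fold), with an adjusted p of 0.125 in edgeR's quasi-likelihood test over all miRNAs. DESeq2 gave 1.20 with an adjusted p of 0.155. With 1 sample left out the edgeR value ran from 1.02 to 1.42. After a correction for the GC content of the mature sequences, the log2 fold change was 0.88 (edgeR adjusted p = 0.246).

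miR-92b-3p, whose hairpin is outside the clusters and which is known in mouse as a miRNA of neural progenitors, had the largest difference among the guides with over 100 reads in every sample. It stood at 53848 and 75503 CPM in CD44v6-positive cells, against 11368 and 18892 CPM in CD44v6-negative cells. The lower of the CD44v6-positive samples lay well above the higher of the CD44v6-negative samples, and in reads it ranked 5 and 2 in CD44v6-positive libraries 1 and 2, against 28 and 10 in CD44v6-negative libraries 1 and 2. The log2 fold change was 2.10 ± 0.48 (SE; 4.27-fold), with an edgeR adjusted p of 0.0908, which missed the threshold of 0.05. DESeq2 gave 2.12 with an adjusted p of 0.0130. With 1 sample left out the value ran from 1.85 to 2.69, and the call depended on which one. The edgeR adjusted p was 0.110 and 0.0030 when CD44v6-negative sample 1 or 2 was dropped, and 0.0407 and 0.297 when CD44v6-positive sample 1 or 2 was dropped. In such fits 1 group is a lone sample assumed to vary like the other group, so these p-values are weak. After a correction for the GC content of the mature sequences, the log2 fold change was 1.25 (edgeR adjusted p = 0.160).

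miR-25-3p did not share this direction. It stood at 7702 and 6780 CPM in CD44v6-positive cells, against 11164 and 10063 CPM in CD44v6-negative cells. On this scale the CD44v6-positive samples were both lower, but as plain shares of the reads the groups overlapped, at 0.776% and 0.842% against 0.740% and 1.21%. Its log2 fold change was -0.55 ± 0.40 (SE; edgeR adjusted p = 0.404), where the median of all tested miRNAs was -0.31. With total count scaling it was -0.27, where the median of all was 0.01.

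miR-32-5p, the intronic guide of TMEM245, was rare. It had 17 and 3 reads in CD44v6-positive samples against 368 and 375 reads in CD44v6-negative samples, or 18.3 and 15.6 CPM against 70.4 and 68.0 CPM. Both CD44v6-positive samples were lower than both CD44v6-negative samples on either scaling, although 1 of them rests on 3 reads. The log2 fold change was -1.99 ± 0.61 (SE; edgeR adjusted p = 0.117). After the GC correction it was -0.63 (edgeR adjusted p = 0.617). miR-363-3p, from the cluster on chromosome X, had 1 and 4 reads in CD44v6-positive samples against 2 and 1 reads in CD44v6-negative samples. Of these counts, 3 lie under 3 reads, the limit that a count of 0 allows, so no fold is given, and it did not pass the filter on low counts.

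**Figure D2:**
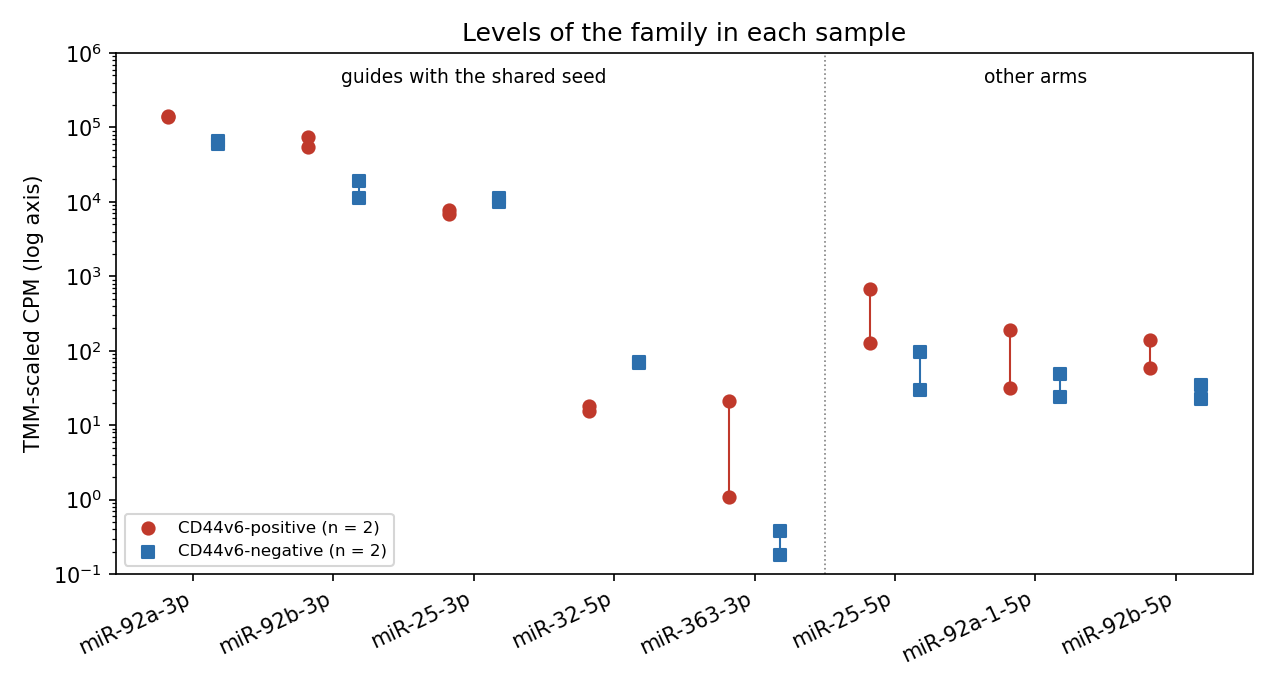
Points give TMM-scaled CPM on a log axis for the 8 members in each sample, CD44v6-positive (circles) left of CD44v6-negative (squares), with a line joining the 2 samples of a group. miR-92a-3p and miR-92b-3p lie higher in both CD44v6-positive samples, miR-25-3p and miR-32-5p lower, and the other arms are spread widely between the CD44v6-positive samples.

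The other arms, usually the strand that is discarded, were read at far lower levels than their guides. miR-25-5p had 118 and 131 reads in CD44v6-positive samples against 154 and 539 reads in CD44v6-negative samples, which at the unequal depths is 127 and 683 CPM against 29.5 and 97.7 CPM. The groups did not overlap, but CD44v6-positive sample 2 alone was far above the rest. The log2 fold change was 2.65 ± 1.00 (SE; edgeR adjusted p = 0.141), and DESeq2 gave 2.64 with an adjusted p of 0.0215. Dropping CD44v6-positive sample 1 or 2 gave 3.28 (edgeR adjusted p = 0.0035) and 1.28 (edgeR adjusted p = 0.291). Dropping CD44v6-negative sample 1 or 2 gave 2.10 (edgeR adjusted p = 0.190) and 3.96 (edgeR adjusted p = 0.0067), with the same limit of a lone sample in 1 group.

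miR-92b-5p had 59.3 and 141 CPM in CD44v6-positive cells against 22.4 and 34.4 CPM in CD44v6-negative cells, and the groups did not overlap. Its log2 fold change was 1.77 ± 0.68 (SE; edgeR adjusted p = 0.144), and after the GC correction 0.41 (edgeR adjusted p = 0.745), at a GC content of 72.7%. miR-92a-1-5p, which can come only from the copy on chromosome 13, had 31.3 and 188 CPM in CD44v6-positive cells against 23.9 and 49.5 CPM in CD44v6-negative cells, so the groups overlapped. Its log2 fold change of 1.51 ± 0.94 (SE; edgeR adjusted p = 0.322) rested on CD44v6-positive sample 2 and was 0.03 without it.

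CD44v6-positive sample 2, the shallowest library, also stood apart in some markers of other tissues, among them miR-122-5p, miR-451a and miR-143-3p, but not in others. The liver miRNA miR-122-5p was at 48.6 and 610 CPM in CD44v6-positive samples against 4.59 and 3.99 CPM in CD44v6-negative samples, and the red cell miRNA miR-451a at 15.1 and 281 CPM against 24.9 and 7.62 CPM. The 8 blood cell miRNAs, all read in every sample, summed to 3785 and 3747 CPM in CD44v6-positive samples against 3139 and 1413 CPM in CD44v6-negative samples, and miR-486-5p made up most of each sum. The 6 miRNAs of stroma and muscle summed to 922 and 5170 CPM in CD44v6-positive samples against 1334 and 914 CPM in CD44v6-negative samples. miR-143-3p made up 4972 of the 5170 CPM, while its cluster partner miR-145-5p was at 100.4 and 57.3 CPM in CD44v6-positive samples against 179 and 197 CPM in CD44v6-negative samples. miR-1-3p and miR-133a-3p had 0 reads in CD44v6-positive sample 2 and in CD44v6-negative sample 2. miR-25 and miR-92a are also abundant in blood cells. The part of these markers in the values above was not tested.

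Counted over the family, none of the 7 tested members passed an adjusted p under 0.05 in edgeR, and neither did any other of the 570 tested miRNAs (0%), whose smallest adjusted p was 0.0787. At an unadjusted p under 0.05, 4 members were higher and 1 lower, against 13.0% and 17.5% of all tested miRNAs. DESeq2 called 2 members higher and 0 lower, against 7.37% and 5.79% of all. The groups did not overlap in 4 members that were higher and 2 that were lower, against 24.9% and 34.6% of all. The median log2 fold change of the 7 was 1.51, against -0.31 over all tested miRNAs. The 7 are those that passed the filter, 3 pairs of them come from the same hairpins, and the members were listed with earlier results of these data known. Signs of all 7 held with TMM, upper quartile, relative log expression and total count scaling, while upper quartile scaling shifted the median of all tested miRNAs by 0.34 and total count scaling by 0.31.

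Ratios between miRNAs of 1 library need no scaling between libraries. They were not corrected for GC content, and its part in them was not tested. That correction moved the log2 fold change of miR-32-5p from -1.99 to -0.63 and that of miR-25-3p from -0.55 to -0.53. In all, 15 ratios were compared, 12 of them listed from the hairpins and clusters and 3, between seed-sharing guides, added after the values were seen. The 2 ratios of miR-363-3p rest on so few reads that only the reads are given. With 2 samples against 2, the two-sided exact permutation test cannot go below p = 0.333 (0.385 after Benjamini-Hochberg adjustment over the 15), so none could pass, and the ratios are given as measurements. The ratio of miR-92a-3p to miR-25-3p was tight within groups, at 18.8 and 20.6 in CD44v6-positive cells against 5.91 and 6.01 in CD44v6-negative cells. That is a log2 difference of 1.72 (3.30-fold), where the SDs within groups were 0.09 and 0.02. For miR-92b-3p to miR-25-3p the ratio was 6.99 and 11.1 in CD44v6-positive cells against 1.02 and 1.88 in CD44v6-negative cells, a log2 difference of 2.67. The ratio of miR-92b-3p to miR-92a-3p was 0.372 and 0.541 in CD44v6-positive cells against 0.172 and 0.312 in CD44v6-negative cells. Here the gap between the groups was smaller than the spread within either.

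Between the arms of a hairpin, only the miR-25 ratio kept the groups apart among the 3 hairpins compared. Reads of miR-25-3p per read of miR-25-5p were 60.2 and 9.90 in CD44v6-positive cells, against 378 and 103 in CD44v6-negative cells. The mean log2 difference was -3.01, with SDs of 1.84 and 1.33 (n = 2 each). It was -4.32 without CD44v6-positive sample 1 and -1.71 without CD44v6-positive sample 2. For miR-92b the ratio was 899 and 527 in CD44v6-positive cells against 506 and 547 in CD44v6-negative cells, and for miR-92a-1 it was 4543 and 734 against 2746 and 1220. Both overlapped. Across the 137 hairpin names with both arms tested, the ratio was taken the other way up, as minor to major arm. Its log2 value had a median difference of 0.12. The groups were apart and higher in 41 (29.9%), where the miR-25 hairpin belongs in this order, and apart and lower in 40. This background was added after the values were seen.

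**Figure D3:**
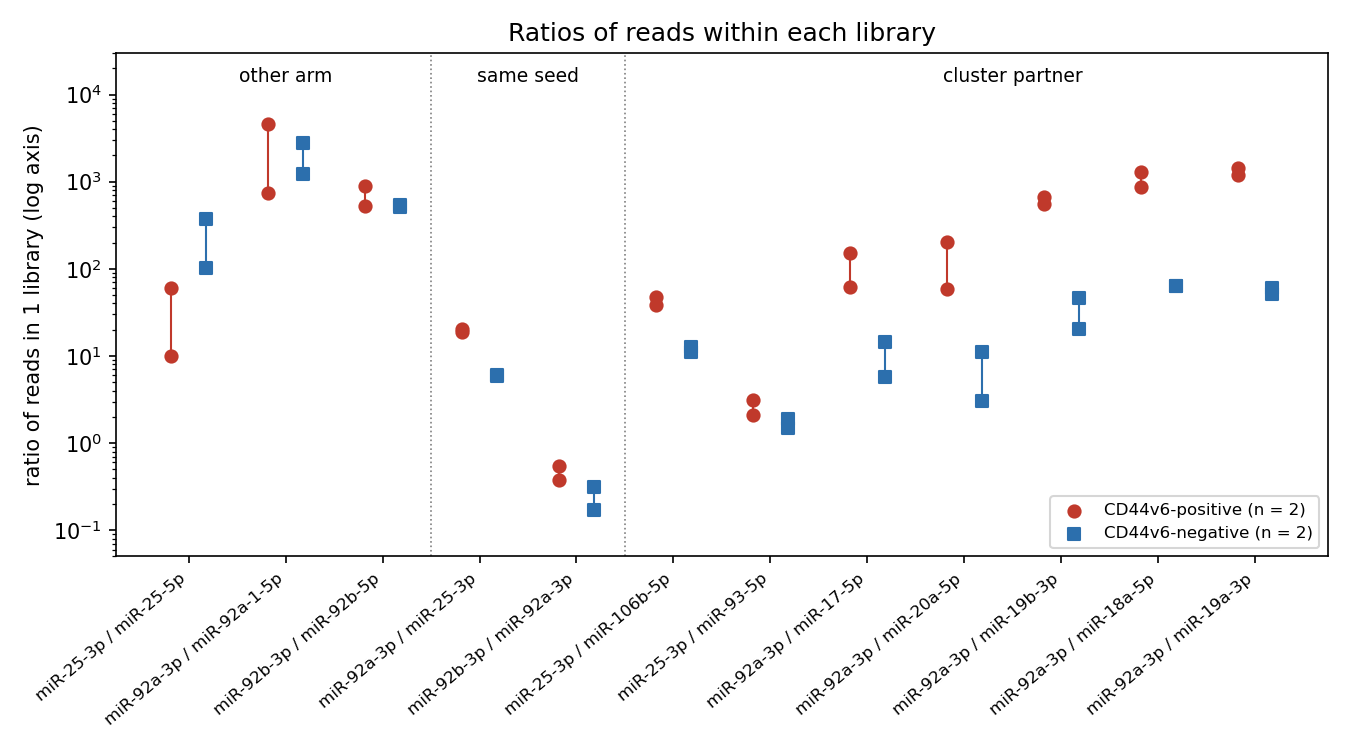
Points give, on a log axis, the ratio of reads within each library for members against their other arm, against a guide of the same seed and against partners of the same cluster, CD44v6-positive (circles) left of CD44v6-negative (squares). The ratio of miR-92a-3p to miR-19a-3p is 1181 and 1448 in CD44v6-positive cells and 51.6 and 60.8 in CD44v6-negative cells, while the arm ratios of miR-92a and miR-92b overlap.

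miR-92a-3p and its cluster partners lay on opposite sides. The partners have hairpins in MIR17HG, as miR-92a-1 does, although chromosome X holds further copies of miR-92a-3p and miR-19b-3p, and reads of these 2 cannot be assigned to 1 locus. They include miR-17-5p and miR-20a-5p, which restrain E2F1, and miR-19b-3p and miR-19a-3p, which have a seed of their own. Of the 10 other entries of miR-17-92, all tested, 9 had negative log2 fold changes and 1, miR-18a-3p, a positive one, with a median of -2.57. With edgeR 0 passed, while 7 were lower and 0 higher at an unadjusted p under 0.05, and DESeq2 called 5 lower and 0 higher. Over all tested miRNAs, 17.5% were lower and 13.0% higher at that unadjusted p, and DESeq2 called 5.79% lower and 7.37% higher. Both arms of the same hairpins are among these entries, so they are not independent. Log2 fold changes of partners in this and the other clusters are given without the GC correction. The part of GC content in them was not tested. miR-92a-3p per miR-17-5p was 61.4 and 150 in CD44v6-positive cells against 5.73 and 14.5 in CD44v6-negative cells. Per miR-19a-3p it was 1181 and 1448 against 51.6 and 60.8, a log2 difference of 4.54 (23.3-fold). The differences for miR-17-5p, miR-20a-5p, miR-18a-5p and miR-19b-3p were 3.39, 4.24, 4.09 and 4.30, and with 1 sample left out none of the 5 came under 2.72. In CD44v6-positive sample 2 the partners were thin, with 178 reads of miR-17-5p and 18 of miR-19a-3p.

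In miR-106b-25, miR-25-3p lay above both 5p partners and below both 3p partners by log2 fold change, which was 0.48 for miR-106b-3p and 0.17 for miR-93-3p. miR-106b-5p, which shares its seed with miR-17-5p, was at 162 and 172 CPM in CD44v6-positive cells against 890 and 914 CPM in CD44v6-negative cells. Its log2 fold change was -2.44 ± 0.49 (SE; edgeR adjusted p = 0.0787). miR-25-3p per miR-106b-5p was 47.4 and 38.9 in CD44v6-positive cells against 12.5 and 11.01 in CD44v6-negative cells, a log2 difference of 1.87. Per miR-93-5p it was 2.08 and 3.12 against 1.496 and 1.91, a log2 difference of 0.59, and the groups only just failed to overlap. Of the 4 partner entries tested, 2 had positive and 2 negative log2 fold changes, with a median of -0.47. With edgeR 0 passed and 1 was lower at an unadjusted p under 0.05, and DESeq2 called 1, also lower. Over all tested miRNAs, 17.5% were lower at that unadjusted p and DESeq2 called 5.79% lower. In miR-106a-363 on chromosome X, 4 of the 8 entries had 0 reads in every sample and 3 could be tested, all with negative log2 fold changes and a median of -2.50. miR-106a-5p, its most read partner, had 13 and 0 reads in CD44v6-positive samples against 346 and 130 in CD44v6-negative samples, where miR-363-3p had 4 reads at most in any sample.

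**Figure D4:**
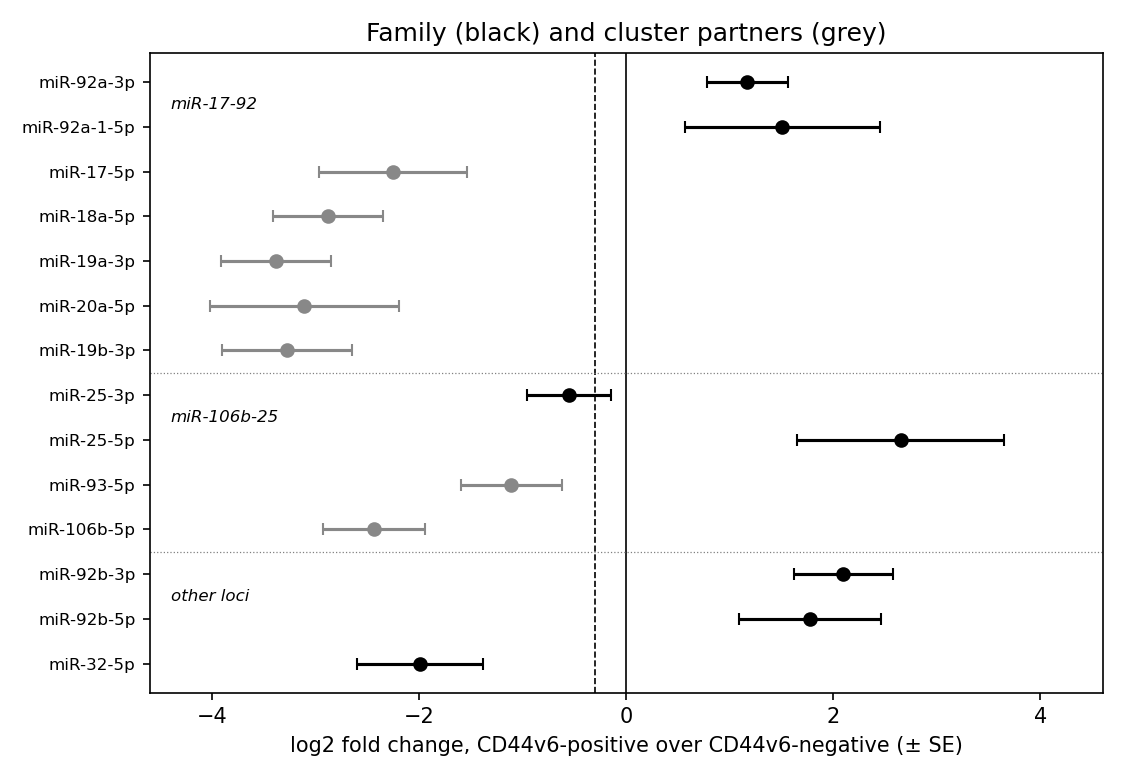
Log2 fold changes, CD44v6-positive over CD44v6-negative, with standard errors from edgeR, for the 7 tested members (black) and 7 partners of their clusters (grey); the dashed line is the median of all tested miRNAs, -0.31. miR-92a-3p lies at 1.17 while its 5 plotted partners lie between -3.38 and -2.25, and miR-25-3p lies at -0.55, nearer to 0 than miR-93-5p and miR-106b-5p.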

How the data were processed

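The deposited table gives raw read counts per mature miRNA, 1 column per combined identity, per the file headers. The submitters' processing notes name build GRCh38, Bowtie 0.12.9, cutadapt 1.10, CASAVA 1.8.2 and DESeq2, with no roles. The annotation and the rules for mismatches and for reads with several matches were not given in the sources used here. The authors' normalized table was not used. All 2026 entries entered edgeR 4.0.16 in R 4.3.3 (TMM, filterByExpr with minimum count 10 and minimum total 15, glmQLFit, glmQLFTest), which tested 570, with Benjamini-Hochberg adjustment over all of them and a threshold of 0.05. DESeq2 1.42.0 and limma 3.58.1 (voom) were alternatives. SEs are the log2 fold change divided by the root of F. Ratios used reads plus 0.5. GC content came from RefSeq mature sequences, given for 87.5% of tested entries, and its correction was a lowess offset per sample. Members and lists were chosen with earlier results of these data known, and all members and the listed partners were named. Replicate numbers gave 2 pairs only, so no pairing was assumed.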

Additional observations from a re-analysis of the deposited data

How the results depend on the processing

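The log2 fold changes of the 7 tested members kept their sign in all 98 refits (14 alternatives each), and 17 of these had an adjusted p under 0.05. With total count scaling 3 members were called in edgeR: miR-25-5p (2.82), miR-92a-3p (1.46) and miR-92b-3p (2.29). DESeq2 called 2, miR-25-5p (2.64) and miR-92b-3p (2.12). With 1 sample left out, 0 to 2 were called. Over all miRNAs the calls were 48 with total count scaling, 77 with no filter, 75 with DESeq2, 4 with limma-voom, 12 with the GC correction, and 26 to 55 with 1 sample left out. With the replicate number as a block, 228 miRNAs and 5 members were called (miR-25-5p 2.46, miR-92a-3p 1.17, miR-92b-3p 2.12, miR-92b-5p 1.71, miR-32-5p -2.004). With the replicate block and the GC correction these were 163 and 3 (miR-25-5p 2.00, miR-92a-3p 0.88, miR-92b-3p 1.25). Same-numbered samples deviated together at r = 0.36, which with 2 samples a group is 1 value for both pairs, and the labels state no pairing. With 1 sample left out the ranges were 1.28 to 3.96 for miR-25-5p, 1.02 to 1.42 for miR-92a-3p, 1.85 to 2.69 for miR-92b-3p, and -1.32 to 1.31 for the log2 arm ratio of miR-92a-3p to miR-92a-1-5p (-0.003 with all samples), which turned positive without CD44v6-positive sample 2 and without CD44v6-negative sample 1 (0.58). Leaving miR-92a-3p out of the sum, the differences in share were -31.7 points for miR-25-3p, 31.9 for miR-92b-3p, -0.248 for miR-32-5p and 0.0124 for miR-363-3p, since the sum is then smaller. For other alternatives the cause was not tested. The difference in the share of the 5 guides, 15.9 points, ran from 12.5 to 19.3 with 1 sample left out. Depth limits miR-32-5p, miR-363-3p and the other arms in the CD44v6-positive libraries, where 3 reads are 3.26 and 19.4 CPM before TMM scaling.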

Other observations

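The arms of the family's hairpins outside the members were rare. miR-32-3p, the other arm of MIR32, had 9 and 0 reads in CD44v6-positive samples against 181 and 268 reads in CD44v6-negative samples. Its log2 fold change was -2.60 ± 0.92 (SE; edgeR adjusted p = 0.132). Both arms of MIR32 thus lay lower in CD44v6-positive samples, on few reads and before the GC correction. That correction moved miR-32-5p to -0.63, and no corrected value is given for miR-32-3p. No read of miR-363-5p was counted (0 reads per sample). That count allows up to 3.26 and 19.4 CPM before TMM scaling in CD44v6-positive samples and up to 0.381 and 0.653 CPM in CD44v6-negative samples. miR-92a-2-5p was not analysed here.

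Among the tested miRNAs, the 5 whose centred log2 CPM over the 4 samples lay nearest to miR-92a-3p, by root-mean-square difference, were miR-3200-5p (0.155), let-7d-3p (0.160), miR-365b-5p (0.169), miR-330-3p (0.177) and miR-625-3p (0.188). Their log2 fold changes ran from 0.98 to 1.73, with edgeR adjusted p from 0.189 to 0.423. Nearest to miR-25-3p were miR-30c-5p (0.0719), miR-151a-3p (0.0853), miR-99b-5p (0.109), miR-502-3p (0.123) and miR-31-5p (0.134), with log2 fold changes from -0.66 to -0.37 and edgeR adjusted p from 0.322 to 0.563. No partner of either cluster was among these 10. Nearness was taken from the same levels as the fold changes, so these lists largely restate the differences between the groups.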
